A study of Homo sapiens with 4 samples.

Results

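The 9 genes POU5F1, NANOG, PRDM14, DPPA4, DPPA2, ZFP42, SALL4, L1TD1 and USP44 are core regulators of the pluripotent state, and their RNA was followed through the first days of blood differentiation of human embryonic stem cells. They were taken by name, through their Entrez gene IDs, and all 9 were found, of 19390 gene IDs listed in any library. The cells were wild-type H1, an established embryonic stem cell line, and the groups are undifferentiated cells (day 0) and cells at days 2, 3 and 4 of differentiation. All of the differentiation was done in a custom version of mTeSR1, a defined stem cell medium. It held activin A (40 ng/ml) and BMP4 (50 ng/ml) for the first 2 days, and VEGF (40 ng/ml) and bFGF (50 ng/ml) for the 2 days after that. Each day is 1 library of 1 line, so differences between days have no replicate check and no p-value is given. The 95% intervals in parentheses cover counting error only.

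POU5F1 (the OCT4 gene) and NANOG encode homeodomain transcription factors that, with the HMG-box factor SOX2, bind many of the same enhancers and keep embryonic stem cells undifferentiated. OCT4 and SOX2 bind next to each other on a composite DNA motif, and NANOG is one of the genes that carries it close to its start. Around this core act the zinc finger factors SALL4, PRDM14 and ZFP42 (REX1), the chromatin proteins DPPA2 and DPPA4, the RNA-binding protein L1TD1, whose sequence derives from a LINE-1 retrotransposon, and the deubiquitinase USP44, which acts on histone H2B and in the mitotic checkpoint. When stem cells are moved toward mesoderm or endoderm by NODAL-type signals such as activin, NANOG and POU5F1 are known to persist into the primitive streak stage, while SOX2 is lost in mesoderm.

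The stretch upstream of NANOG is shown first because it carries the composite motif on which POU5F1 and SOX2, the genes compared most closely here, meet. It is the 250 bases before the RefSeq start, GRCh38.p14, chr12:7789152-7789401, plus strand, with the match in capitals.
NANOG: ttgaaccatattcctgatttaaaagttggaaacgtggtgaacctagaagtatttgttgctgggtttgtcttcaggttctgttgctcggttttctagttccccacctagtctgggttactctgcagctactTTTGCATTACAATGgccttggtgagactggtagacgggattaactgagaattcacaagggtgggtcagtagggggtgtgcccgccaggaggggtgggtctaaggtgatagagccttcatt
The motif searched, on both strands, was CATTGT, then any 1 base, then ATGCNAA, and the match in capitals is on the opposite strand, from 120 to 107 bases before the start. Of 35116 RefSeq promoters cut to the same 250 bases, 2 hold it, or 0.0057%. The SOX half-site CATTGT, which is part of that motif, was in 9.29% of promoters, and the octamer ATGCAAAT in 1.63%. A promoter sequence was found for 5 of the 9 genes (NANOG, DPPA2, DPPA4, ZFP42 and L1TD1). Of these, NANOG alone held the composite motif and the half-site, and none held the octamer. DPPA2 and DPPA4 lie side by side on chromosome 3 with 0 protein-coding genes between them. Their upstream stretches are shown because these neighbours differed in level and in timing, and the capitals mark CG dinucleotides. Both are on the minus strand of GRCh38.p14, DPPA4 at chr3:109337547-109337796 and DPPA2 at chr3:109316518-109316767.
DPPA4: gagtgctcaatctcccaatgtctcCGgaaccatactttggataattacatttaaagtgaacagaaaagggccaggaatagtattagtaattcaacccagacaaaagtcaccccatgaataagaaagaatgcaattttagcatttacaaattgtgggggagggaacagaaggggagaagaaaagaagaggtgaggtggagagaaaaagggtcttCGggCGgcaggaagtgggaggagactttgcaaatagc
DPPA2: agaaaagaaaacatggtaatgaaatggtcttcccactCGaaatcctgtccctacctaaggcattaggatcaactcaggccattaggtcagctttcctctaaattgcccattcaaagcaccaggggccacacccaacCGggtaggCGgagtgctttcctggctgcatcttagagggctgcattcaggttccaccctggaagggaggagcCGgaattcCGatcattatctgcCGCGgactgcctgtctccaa
DPPA4 had 3 CG dinucleotides in this window and DPPA2 had 7, against a median of 11 over all promoters. NANOG had 4, L1TD1 had 12, close to that median, and ZFP42 had 23, with 74.2% of promoters holding fewer. A motif match is a description of the sequence and does not show binding.

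Depth was even, at 5.04 to 5.49 M expected counts per library, so that 1 read was worth 0.182 to 0.196 CPM, the count relative to the scaled library total. The day 0 library bore the markers of its label, undifferentiated cells. SOX2 stood at 286 CPM, the RNA-binding factor LIN28A at 2424.5 CPM, and the 12 primitive streak markers summed to 11.2 CPM with 5 of them at 0 counts. All 25 genes of the wider pluripotency list described below were at 1 CPM or more, though some were low, such as GDF3 at 10.3 CPM and UTF1 at 2.52 CPM. LIN28A was high later as well, at 1328 CPM at day 4. In these bulk samples, fewer undifferentiated cells and less RNA per cell cannot be told apart.

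**Figure D1:**
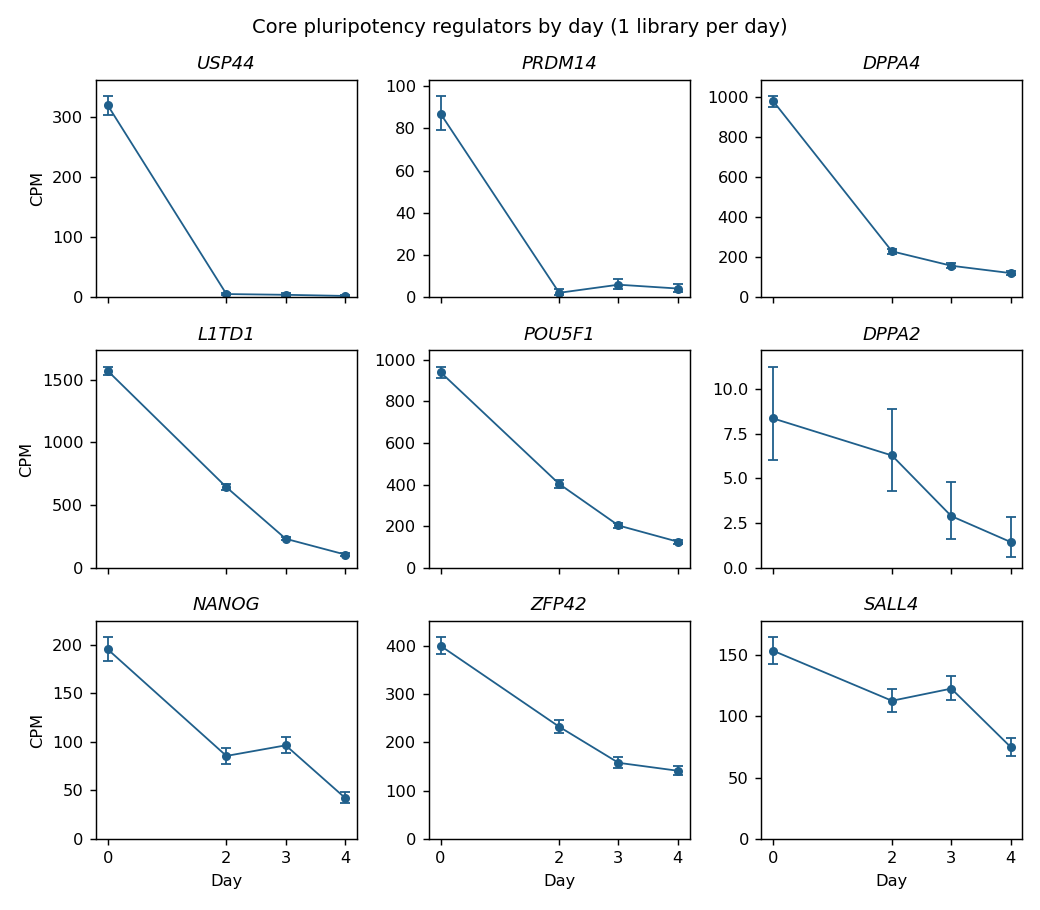
Level of each gene in CPM (vertical axes, each from 0) against day (horizontal axes), 1 library per day. Bars are exact 95% Poisson intervals of the counts. USP44 and PRDM14 are near the floor from day 2 on, whereas SALL4 at day 4 still stands at 75.1 CPM.

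On the log2(CPM + 1) scale, all 9 genes stood at least 2-fold below day 0 at day 4, against 11.9% of all genes measured, and 6 of them at least 4-fold, against 3.44%, but their courses differed. The added 1 CPM makes differences of low genes smaller, and DPPA2, at 5.74-fold lower in plain CPM, is under 4-fold on that scale for this reason. USP44 and PRDM14 were all but gone by day 2, at 1.72% and 2.48% of their day 0 CPM. L1TD1, POU5F1, DPPA4 and ZFP42 were lower at each day measured than at the one before, beyond counting error. NANOG and SALL4 did not differ between days 3 and 2 beyond counting error and were lower at day 4. The day 4 levels ran from 0.741% of day 0 for USP44 to 48.9% for SALL4.

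The core factor POU5F1 (gene ID 5460) measured 939.6, 404, 204 and 126 CPM at days 0, 2, 3 and 4. Every day was lower than the one before, and no 2 of the 4 intervals overlapped. Its day 2 level was 2.33-fold lower than day 0 (2.21 to 2.45), its day 3 level 1.98-fold lower than day 2 (1.83 to 2.13) and its day 4 level 1.61-fold lower than day 3 (1.47 to 1.78). At day 4, POU5F1 was 7.43-fold lower than at day 0 (6.86 to 8.05).

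NANOG (gene ID 79923) measured 195, 85.3, 96.2 and 42.2 CPM at days 0, 2, 3 and 4. Day 0 was highest and day 4 lowest, and days 2 and 3 overlapped. The day 2 level was 2.29-fold lower than day 0 (2.04 to 2.56), close to the ratio for POU5F1 at that step. Day 3 stood at 1.13-fold of day 2 (0.99 to 1.29), an interval that includes no difference, and the day 4 level was 2.28-fold lower than day 3 (1.95 to 2.68). NANOG and POU5F1 thus had similar ratios over the activin A and BMP4 step and unlike ones at the first day of VEGF and bFGF, where their intervals did not overlap. At day 4 against day 3 the intervals did not overlap either, but there NANOG had the larger difference, against 1.61-fold lower for POU5F1 (1.47 to 1.78).

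SALL4 (gene ID 57167), a zinc finger factor that recruits the NuRD corepressor, measured 154, 113, 123 and 75.1 CPM at days 0, 2, 3 and 4. Day 0 was highest, day 4 lowest, and days 2 and 3 overlapped. The day 2 level was 1.36-fold lower than day 0 (1.22 to 1.52), day 3 stood at 1.09-fold of day 2 (0.97 to 1.22), and day 4 was 1.64-fold lower than day 3 (1.44 to 1.85). Its day 4 level was 2.05-fold lower than day 0 (1.81 to 2.31), just past the 2-fold rule. With a pseudocount of 5 CPM SALL4 did not reach it, and 8 of the 9 genes passed.

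PRDM14 (gene ID 63978), a PR-domain zinc finger protein of pluripotent and germ cells, measured 86.9, 2.16, 5.99 and 4.18 CPM at days 0, 2, 3 and 4. These are 448, 11, 31 and 23 counts, so the 3 later days rest on few reads. Day 2 was 40.3-fold lower than day 0 (22.3 to 81.2). Day 3 was 2.78-fold higher than day 2 (1.36 to 6.12), which made PRDM14 the one gene of the 9 at least 2-fold higher at any step. That call ended with a pseudocount of 5 CPM and, by the same rule, on the deposited FPKM. The FPKM values themselves were 0.91 at day 2 and 2.52 at day 3. The constant that the rule adds weighs heavily on values this low. Day 4 did not differ from day 3 beyond counting error, at 1.43-fold lower (0.81 to 2.57).

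ZFP42 (gene ID 132625), the zinc finger gene also called REX1 and long used as a marker of undifferentiated cells, measured 400.1, 232, 158 and 141 CPM at days 0, 2, 3 and 4. It was 1.72-fold lower at day 2 than at day 0 (1.60 to 1.85) and 1.47-fold lower at day 3 than at day 2 (1.35 to 1.61). These intervals overlap, and the first step covers more days than each later one. The last step was the smallest, 1.12-fold lower at day 4 than at day 3 (1.011 to 1.23). At day 4, 35.3% of its day 0 CPM was left (32.4 to 38.3%), against 13.5% for POU5F1 (12.4 to 14.6%).

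DPPA4 (gene ID 55211), a chromatin protein with a SAP domain, measured 979.7, 230.1, 158 and 121 CPM at days 0, 2, 3 and 4. Most of its difference lay in the first step, where day 2 was 4.26-fold lower than day 0 (3.99 to 4.54). Day 3 was then 1.46-fold lower than day 2 (1.33 to 1.59), and day 4 was 1.30-fold lower than day 3 (1.18 to 1.45). Its neighbour and partner DPPA2 (gene ID 151871) measured 8.34, 6.28, 2.90 and 1.45 CPM, from 43, 32, 15 and 8 counts. Its day 2 level was not lower than day 0 beyond counting error, at 1.33-fold (0.82 to 2.17), and the day 2 folds of these neighbours have intervals that do not overlap. By day 4, DPPA2 was 5.74-fold lower than at day 0 (2.67 to 14.1) and DPPA4 8.08-fold lower (7.45 to 8.77), with overlapping intervals.

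L1TD1 (gene ID 54596) was the most counted of the 9 genes at day 0, with 8096 counts, and measured 1570.05, 644, 233 and 108 CPM at days 0, 2, 3 and 4. Each step was more than 2-fold: day 2 was 2.44-fold lower than day 0 (2.34 to 2.54), day 3 was 2.76-fold lower than day 2 (2.58 to 2.95), and day 4 was 2.16-fold lower than day 3 (1.96 to 2.39). No other of the 9 genes was at least 2-fold lower at all 3 steps, which left L1TD1 14.5-fold lower at day 4 than at day 0 (13.4 to 15.8).

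USP44 (gene ID 84101) measured 319, 5.49, 4.25 and 2.36 CPM at days 0, 2, 3 and 4, from 1645, 28, 22 and 13 counts. Day 2 was 58.1-fold lower than day 0 (40.0 to 87.7), with all 3 later days far below the first. The single steps after day 2 held no difference beyond counting error, while day 4 was 2.32-fold lower than day 2 (1.17 to 4.89). At day 4, USP44 was 135-fold lower than at day 0 (78.7 to 254), the largest difference among the 9 genes.

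**Figure D2:**
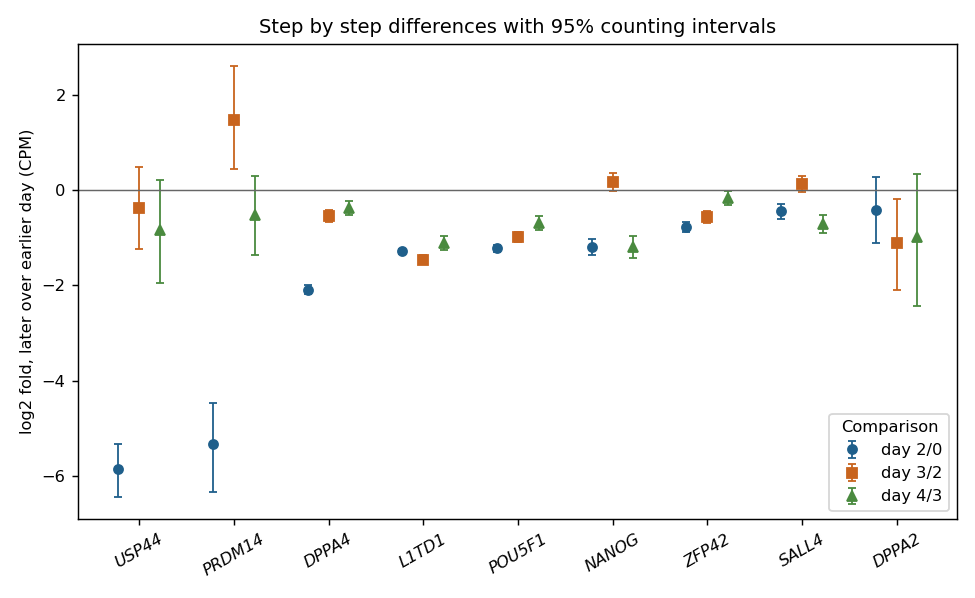
Differences at the 3 single steps, as log2 fold of the later over the earlier day in CPM (vertical axis), for each gene (horizontal axis). Points are ratios of 1 library over 1 library and bars are 95% counting intervals. The day 2/0 points of USP44 and PRDM14 lie far below all others, and PRDM14 lies above 0 at day 3/2.

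Counts of the 9 genes are set beside those of all genes by a rule of size. Genes at 1 CPM or more on either day entered, and a difference of 1 or 2 in log2(CPM + 1) was the limit for 2-fold and 4-fold. All 9 genes passed that minimum in every comparison. Folds printed for single genes are ratios of plain CPM, so a low gene can pass 2-fold or 4-fold in CPM and not by this rule. At day 2 against day 0, 6 of 9 were at least 2-fold lower, against 8.81% of 15379 genes, and 3 of 9 (USP44, PRDM14 and DPPA4) at least 4-fold lower, against 1.93%. None was 2-fold or 4-fold higher, against 12.9% and 4.63% of all genes. The 3 that were not 2-fold lower were ZFP42, SALL4 and DPPA2. The median log2 ratio of the 9 was -1.22, against 0.00 for all genes.

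At day 3 against day 2, L1TD1 was the 1 gene of the 9 at least 2-fold lower, against 3.51% of 15286 genes, with PRDM14 at least 2-fold higher, against 5.82%. POU5F1 lay just short of the rule at a log2 ratio of -0.98, and DPPA2 at -0.90. The count of lower genes was 2 with median-of-ratios scaling, which added POU5F1, and 2 with a pseudocount of 0.1 CPM, which added DPPA2. At day 4 against day 3, 2 of 9 (NANOG and L1TD1) were at least 2-fold lower, against 4.25% of 15367 genes. None was 4-fold lower at either of these steps, against 0.406% and 0.228% of all genes, and none 4-fold higher, against 1.32% and 0.377%. At day 4 against day 3 none was 2-fold higher, against 2.96%. The medians were -0.54 at day 3 against day 2 and -0.67 at day 4 against day 3.

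Over the whole VEGF and bFGF step, day 4 against day 2, 4 of 9 (POU5F1, NANOG, DPPA2 and L1TD1) were at least 2-fold lower, against 7.6% of 15406 genes. NANOG passed narrowly, at 2.02-fold lower in CPM (1.72 to 2.38), and with a pseudocount of 5 CPM the count was 2 (POU5F1 and L1TD1). USP44, at 2.32-fold lower in CPM, did not pass with the added 1 CPM, at a log2 ratio of -0.95. NANOG was short of the limit on the deposited FPKM as well. L1TD1 was the 1 gene at least 4-fold lower, against 1.4% of all genes. DPPA2 was 4.32-fold lower in CPM (1.95 to 10.8) and joined it with a pseudocount of 0.1 CPM, for a count of 2. None was 2-fold or 4-fold higher, against 8.18% and 2.32%. At day 4 against day 0, 9 of 9 were at least 2-fold lower, against 11.9% of 15652 genes, and 6 of 9 at least 4-fold lower, against 3.44%. None was 2-fold or 4-fold higher, against 16.1% and 6.27%. The 3 short of 4-fold by this rule were ZFP42, SALL4 and DPPA2, of which DPPA2 passed with a pseudocount of 0.1 CPM, for a count of 7. These comparisons share libraries, so the counts are not independent of each other.

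Levels can be compared between genes per length, on the deposited FPKM (fragments scaled by transcript length and library size). On that scale POU5F1 led the 9 genes in every library, with 697, 287, 148 and 93.6 FPKM at days 0, 2, 3 and 4. The sum of the 9 was 1896, 693, 409 and 262 FPKM, of which POU5F1 made up 36.8, 41.5, 36.3 and 35.7%. Second place was taken by L1TD1 at days 0 and 2, at 409.6 and 161 FPKM, and by ZFP42 at day 4, at 53.3 FPKM. At day 3, ZFP42, L1TD1 and DPPA4 followed each other at 59.2, 58.9 and 55.7 FPKM, neighbours that did not differ beyond counting error.

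At day 0, POU5F1 was followed by L1TD1, DPPA4 at 355 FPKM, ZFP42 at 155, USP44 at 95.6, NANOG at 95.4, SALL4 at 44.9, PRDM14 at 37.95 and DPPA2 at 6.2 FPKM. All neighbours in this order differed beyond counting error except USP44 and NANOG. By day 4 the order after POU5F1 was ZFP42, DPPA4 at 42.9 FPKM, L1TD1 at 27.5, SALL4 at 21.5, NANOG at 20.2, PRDM14 at 1.75, DPPA2 at 1.06 and USP44 at 0.71 FPKM. SALL4 and NANOG did not differ there beyond counting error, nor did PRDM14, DPPA2 and USP44 as neighbours in that order. Among all genes listed in a library, POU5F1 stood at the 99.6th percentile of FPKM at day 0 and at the 96.0th at day 4, so it was still a high-ranking RNA. USP44 stood at the 96.1st and the 20.2nd percentile on those days.

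Ratios within a library do not depend on scaling between libraries. Per length, NANOG stood at 13.8% of POU5F1 at day 0 (12.9 to 14.8%), 14.1% at day 2 (12.6 to 15.6%), 31.2% at day 3 (28.0 to 34.7%) and 21.8% at day 4 (18.7 to 25.3%). The day 0 and day 2 ratios overlapped, and the day 3 ratio lay above all others. SALL4 stood at 6.55% of POU5F1 at day 0, 11.2% at day 2, 23.9% at day 3 and 23.3% at day 4, with the widest gap between days 2 and 3.

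SOX2, the partner of POU5F1 on the composite motif shown above, stood at 16.8% of POU5F1 per length at day 0 (15.9 to 17.9%) and at 0.108% at day 2 (0.0293 to 0.276%). It was 0.208% at day 3 and 0.546% at day 4 (0.219 to 1.13%). NANOG was measured at 85.3 CPM in a library in which SOX2 had 4 counts. DPPA2 stood at 1.72% of DPPA4 at day 0 (1.25 to 2.33%) and at 5.53% at day 2 (3.76 to 7.85%), with wide intervals afterwards. The RNA-binding factor gene LIN28A stood at 1.501 times L1TD1 per length at day 0, 1.96 times at day 2, 6.28 times at day 3 and 11.99 times at day 4. LIN28A measured 1328 CPM at day 4 and was 1.83-fold lower than at day 0 (1.77 to 1.88).

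**Figure D3:**
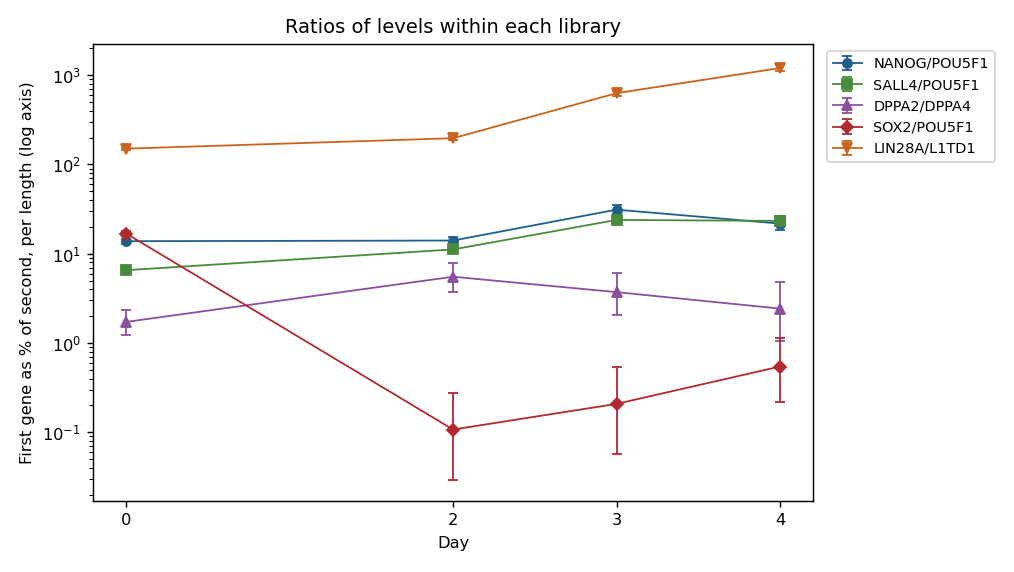
Level of the first gene of each pair as a percent of the second, per transcript length, within the same library (vertical axis, log scale) against day (horizontal axis). Bars are 95% counting intervals. SOX2/POU5F1 is far lower at day 2 than at day 0, while NANOG/POU5F1 is 13.8% and 14.1% on those days.

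The deposited length of a gene is a mean over its transcript models, so it can move when their shares move. It was the same in all libraries for 6 of the 9 genes, each with 1 transcript model, and differed for the 3 with several models. POU5F1, with 3 models, had 1396, 1394, 1388 and 1369 bases at days 0, 2, 3 and 4. USP44, with 2 models, had 3404 bases at day 0 and 3334 at each later day, and L1TD1, also with 2, had 3903, 3907, 3921 and 3913 bases. The largest of these differences was 2.05%. No gene of the 9 passed 10% in any comparison, against 1.13 to 1.71% of genes with at least 10 CPM on both days. The 6 genes with 1 model could not differ in length, and USP44 was under 10 CPM from day 2 on. The 9 genes and that background are therefore unlike sets.

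Reads of POU5F1 and NANOG can be shared with near-identical gene copies, so their counts carry that uncertainty. The expected counts of DPPA2, SALL4 and USP44 were whole in every library, and those of the other 6 were not whole in at least 1 library. Of the POU5F1 copies, POU5F1B, POU5F1P3 and POU5F1P4 together had 0, 3, 5 and 5 counts at days 0, 2, 3 and 4, against 4845, 2057, 1057 and 696 for POU5F1. The NANOG copies NANOGP1 and NANOGP8 were not analysed here.

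The wider pluripotency network was described from a list of 25 further genes. At day 2 against day 0, 16 of 25 passed the 2-fold limit downward and 0 upward, against 8.81% and 12.9% of all genes, with a median log2 ratio of -1.52. SOX2 was 364-fold lower (142 to 1338), the forkhead factor gene FOXD3 at least 24.7-fold (0 counts, taken against 3 counts in that library), the tyrosine kinase gene LCK 14.4-fold (9.23 to 23.5) and the de novo DNA methyltransferase gene DNMT3B 7.33-fold (6.997 to 7.68). TDGF1, the NODAL coreceptor, measured 746 CPM at day 2 against 1096 CPM at day 0. GDF3, a ligand of the NODAL family, measured 2.94 CPM against 10.3 CPM.

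At day 4 against day 0, 19 of 25 of these genes were at least 2-fold lower and 14 at least 4-fold, against 11.9% and 3.44% of all genes, with a median of -2.54 beside -2.88 for the 9 core genes and 0.03 for all genes. LCK was 163-fold lower (44.7 to 1350), resting on 2 counts at day 4, the zinc finger gene ZSCAN10 17.5-fold (13.1 to 24.1) and TDGF1 7.64-fold (7.09 to 8.25). None was at least 2-fold higher, against 16.1%. USP44 was the core gene with the smallest share left, 0.741% (0.394 to 1.27%), and SOX2 was 225-fold lower at day 4 (109 to 559).

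**Figure D4:**
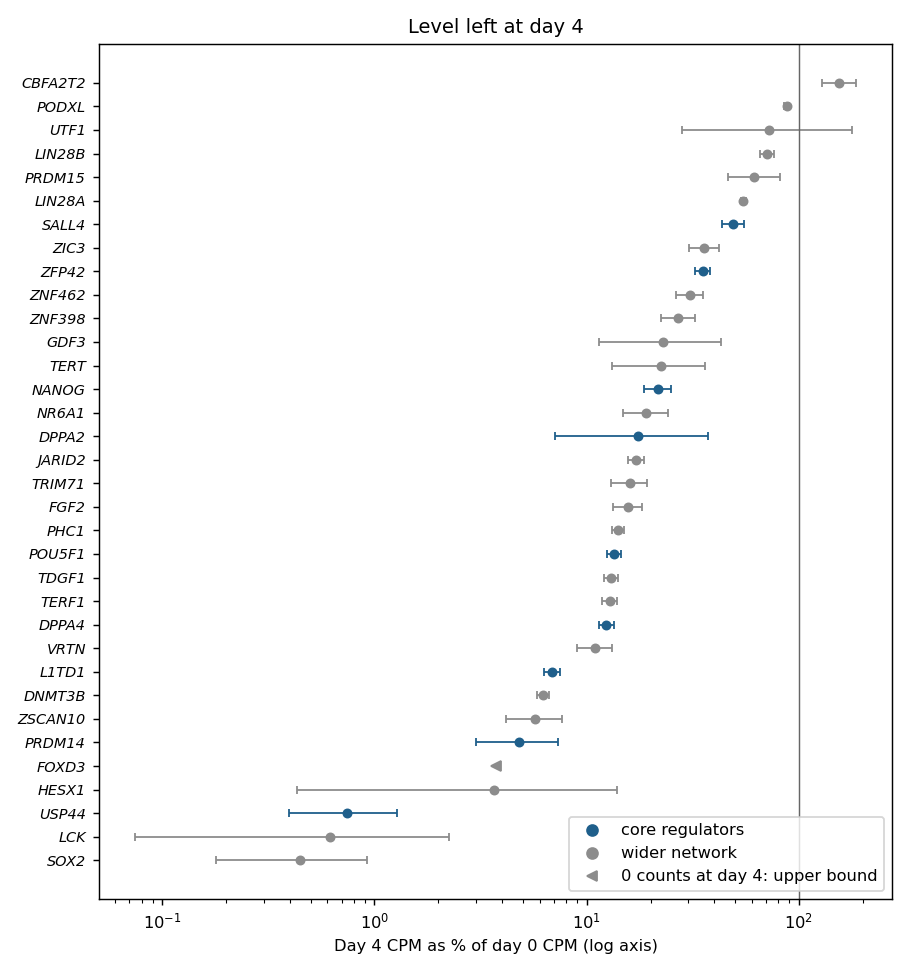
Level at day 4 as a percent of the level at day 0 in CPM (horizontal axis, log scale) for the 9 core genes and the 25 genes of the wider network (vertical axis, sorted). Bars are 95% counting intervals, the triangle marks an upper bound for a gene with 0 counts at day 4, and the line marks 100%. The core genes spread from 0.741% for USP44 to 48.9% for SALL4.

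For the primed state, in which human embryonic stem cells are usually kept, 12 genes were listed, with DNMT3B and FGF2 among the 25 above as well. Of these, 7 were at least 2-fold lower at day 2 than at day 0 and 2 were higher, against 8.81% and 12.9% of all genes. The list held the SALL4 relative SALL2 6.69-fold lower (6.15 to 7.29), the surface marker gene CD24 6.09-fold lower (5.84 to 6.35) and the N-cadherin gene CDH2 8.09-fold higher (7.32 to 8.95). At day 4 against day 0, 9 of 12 were lower and 1 was higher, against 11.9% and 16.1% of all genes.

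Genes of early human germ cells, which also use POU5F1, NANOG and PRDM14, differed in direction. Of 11 with at least 1 CPM, 4 stood 2-fold or more above day 0 at day 2, and 1 below, against 12.9% and 8.81% of all genes. SOX17, an endoderm and germ cell factor, measured 90.4 CPM at day 2 against 0.194 CPM at day 0. PRDM1, which encodes BLIMP1, measured 103 CPM against 3.49 CPM, TFAP2C 76.7 CPM against 7.18 CPM, and NANOS3 5.30 CPM against 0 counts. At day 2 against day 0, ALPL was 1.51-fold lower (1.37 to 1.67) and KIT 1.32-fold lower (1.02 to 1.70). PDPN was 1.21-fold higher (1.07 to 1.36), and DPPA3, DND1 and SOX15 did not differ beyond counting error. The later germ cell gene DDX4 had no count before day 4 and DAZL none after day 0. PRDM1 and SOX17 are also genes of endoderm.

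The summed markers of other cell types were higher at days 2, 3 and 4 than at day 0, when the core genes were lower, and their part in the result was not tested. Summed over 12 primitive streak genes, CPM were 11.2, 3099.6, 496 and 132 at days 0, 2, 3 and 4. At day 0, 2 of 12 were at 1 CPM or more, and at day 2, 12 of 12. The largest part of the day 2 sum came from CER1, at 2287 CPM, which stood at 26.3 CPM at day 3. At day 3 against day 2, 6 of 12 were at least 2-fold lower and 0 higher, against 3.51% and 5.82% of all genes. The streak sum was thus highest at day 2 and lower at days 3 and 4, while each core gene was highest at day 0. Over 9 mesoderm genes the sums were 11.2, 804, 1103 and 1252 CPM, with 4 of 9 and then 9 of 9 at 1 CPM or more. Over 8 definitive endoderm genes they were 4.65, 452, 456 and 415 CPM. The largest part of these came from GATA6 at day 2, at 191 CPM, and from GATA4 at days 3 and 4, at 125 and 126 CPM. Over 12 endothelial and blood genes the sums were 256, 474, 1196 and 1739.9 CPM, the largest part of which came from the VEGF receptor gene KDR, at 209, 354, 868 and 942 CPM. Over the 9 amnion and trophoblast genes found of 10 they were 17.5, 494, 686 and 853 CPM. The largest part from day 2 on came from HAND1, counted among the mesoderm genes as well, at 1.75, 289, 443 and 594 CPM. The 12 reference genes summed to 14541, 14380.4, 12718 and 14906 CPM, the largest part from ACTB, so the sum hides single genes. At day 2 against day 0, 0 of 12 were at least 2-fold lower and 1 was higher, B2M, 2.21-fold (1.88 to 2.59). At day 3 against day 2, 1 was lower, HPRT1, 2.23-fold (1.67 to 3.01), and 0 higher. The shares over all genes were 8.81% and 12.9%, then 3.51% and 5.82%.

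The genes whose course over the 4 libraries was most like that of each core gene were found by the root mean square difference of centred log2(CPM + 1), among 11565 genes with at least 10 CPM in any library. With 4 points such likeness is easily reached and is given as a description. POU5F1 was nearest to FAM131B, at a difference of 0.054, and MAP7, at 0.057. NANOG was nearest to UGT8 (0.070) and to USP49 (0.081), a deubiquitinase related to USP44. SALL4 was nearest to ORC4, a subunit of the origin recognition complex, at 0.010, and to ABCC9 (0.016). ZFP42 was nearest to FHL2 (0.024) and SLC39A14 (0.032), DPPA4 to CHRDL1 (0.035) and RBM47 (0.049), DPPA2 to SULT4A1 (0.051) and ICOSLG (0.066), and L1TD1 to ADGRG2 (0.047) and FHDC1 (0.105).

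PRDM14 and USP44 had no such close neighbours. The measure is not scaled to the size of a difference, and both had the largest differences of the 9 and few reads from day 2 on. The nearest to PRDM14 were ARC, at 0.197, and D21S2088E, at 0.216, and the nearest to USP44 were ZDHHC22, at 0.394, and PTPRZ1, at 0.423. Among the 9 genes themselves, the closest pair was DPPA2 and ZFP42, at 0.304, followed by POU5F1 and DPPA4, at 0.335. The first pair leans on the added 1 CPM, which flattens the course of DPPA2, at 8.34 CPM or less in every library. In plain CPM, DPPA2 was 5.74-fold lower at day 4 than at day 0, against 2.84-fold for ZFP42. SALL4 and USP44 were farthest apart, at 2.36. The mean course of the 9 was nearest to MMP25, IQSEC2, BRSK2, SHISAL1 and SYT13, at 0.061 to 0.101. On the deposited FPKM, 6 of the 23 named gene pairs were found again, so the individual names depend on the scale.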

How the data were processed

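RNA of the 4 libraries was measured by sequencing after Trizol extraction and an Illumina TruSeq RNA kit, per the labels' protocols. BWA, Bowtie, RSEM and hg19 are named, with no roles, per the submitters' processing notes. The design text instead speaks of BWA followed by ANOVA and of TopHat with Cufflinks. Which of these made the deposited values is not stated, and RSEM is inferred from the column names alone. Versions: not given in the sources used here. Per gene, the authors deposited an expected count, an FPKM value and a transcript length. Expected counts were rounded to whole numbers and divided by library totals scaled with TMM (edgeR 4.0.16, R 4.3.3) to give CPM. Deposited FPKM was used for levels between genes and 1 alternative. Genes missing from a library were set to 0 there.

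Names came from RefSeq (GRCh38.p14): 19273 of 19390 IDs matched, TDGF1 through an older symbol. With 1 library per day no test was run, and a rule of size took its place. CPM intervals are exact Poisson and fold intervals exact conditional binomial, at 95%. A gene at 0 counts in 1 library has a bound against 3 counts in that library. Python 3.11.15 was used with scipy 1.17.1, numpy 2.4.6, matplotlib 3.10.9 and pandas 2.3.3, and the rule was tested on simulated data.

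The 9 genes and all 12 lists were chosen with earlier results of these data known. Named genes were the 9, up to 4 per list and comparison with the largest difference besides SOX2, LIN28A, TDGF1, DNMT3B and GDF3, the 2 nearest in course to each of the 9, and the 5 nearest to their mean. KDR, DDX4, DAZL, ALPL, SOX15, SALL1, SALL3, POU2F1, DPPA5, KLF17, NR5A2 and the copies of POU5F1 were named outside that rule, after their values were seen.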

Additional observations from a re-analysis of the deposited data

How the results depend on the processing

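No paired analysis was possible because each day is 1 library and the comparisons rest on no test. The other settings, each tried alone, were a pseudocount of 0.1 or 5 CPM, median-of-ratios or plain totals, no minimum or 5 CPM, and the deposited FPKM. Of 140 recomputed counts of core genes, 134 stayed within 1.5 times, as did 778 of 840 counts of the other lists; 34 of 35 medians and 307 of 312 single ratios moved by less than their counting interval, and none reversed. The count at least 2-fold lower at day 3 against day 2, 1 gene, became 2 with a pseudocount of 0.1 CPM (with DPPA2) and 2 with median-of-ratios factors (with POU5F1). The 1 gene 2-fold higher there (PRDM14) became 0 with a pseudocount of 5 CPM and 0 on FPKM. Its FPKM values were 0.91 and 2.52, so low that the constant added by the rule shrinks their ratio. At day 4 against day 2, the 4 genes 2-fold lower became 2 with a pseudocount of 5 CPM, and the 1 gene 4-fold lower became 2 with 0.1 CPM (with DPPA2). The median at day 4 against day 3, -0.67, became -0.37 with a pseudocount of 5 CPM. A larger pseudocount shrinks ratios of low genes by construction. On centred FPKM, 6 of 23 nearest pairs were shared; with a 20% length threshold the count of genes stayed at 0. Depth limits DPPA2, PRDM14 and USP44 most, at 8, 23 and 13 counts on day 4.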

Other observations

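Relatives of the core factors did not take one course. SALL1 measured 126, 242, 223 and 129 CPM at days 0, 2, 3 and 4, SALL2 807, 121, 120.4 and 75.8 CPM, and SALL3 45.8, 34.1, 29.96 and 19.6 CPM, beside 154, 113, 123 and 75.1 CPM for SALL4. The POU factor gene POU3F1 was 9.20-fold lower at day 2 than at day 0 (5.18 to 17.8), while POU2F1 measured 133 CPM against 189 CPM. The PR-domain gene PRDM1 was 29.4-fold higher at day 2 than at day 0 (18.4 to 50.1) where PRDM14 was 40.3-fold lower. The deubiquitinase gene USP3 was 4.82-fold higher at day 2 (3.49 to 6.77) where USP44 was 58.1-fold lower. Of 15 relatives with at least 1 CPM, 4 were at least 2-fold lower and 4 higher at day 2 than at day 0, against 8.81% and 12.9% of all genes.

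Partners of SALL4 and USP44 in the NuRD and NCOR corepressors differed by less than 2-fold, with 1 exception at day 2, but not all in the same direction. Of 16, none was 2-fold lower and 1 was 2-fold higher at day 2 than at day 0, TBL1X, at 94.7 CPM against 40.5 CPM. Over all genes 8.81% were lower and 12.9% higher, so these counts are near the background. None passed either way at day 4 against day 0, against 11.9% lower and 16.1% higher over all genes. Among them, NCOR1 was 1.69-fold lower at day 4 than at day 0 (1.55 to 1.86), MTA3 1.73-fold lower (1.53 to 1.95) and TBL1X 1.61-fold higher (1.35 to 1.92). At day 2 against day 0, TBL1XR1 was 1.63-fold higher (1.501 to 1.77) and MTA2 1.54-fold higher (1.39 to 1.71). Their sum was 3160.1, 3169, 3172 and 2955 CPM at days 0, 2, 3 and 4.

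Genes of the naive state, an earlier form of pluripotency than the primed one, were low at day 0, and of 11 with at least 1 CPM 6 were at least 2-fold higher and 1 lower at day 4 than at day 0, against 16.1% and 11.9% of all genes. At day 3 against day 2, 3 of 11 were higher and 1 lower, against 5.82% and 3.51%, with a median log2 ratio of 0.12. TFCP2L1, KLF2 and KLF4, transcription factor genes of naive mouse cells, were the 3, by 8.11-fold (4.89 to 14.3), 11.2-fold (3.51 to 56.8) and 5.71-fold (2.90 to 12.5), and NR0B1, which encodes DAX1, was 3.55-fold lower (2.01 to 6.63). At day 4, TFCP2L1 was 2.01-fold lower than at day 3 (1.51 to 2.70) and KLF4 1.67-fold lower (1.085 to 2.59). TBX3, also a mesoderm gene, measured 281 CPM at day 4 against 1.16 CPM at day 0, and KLF5 49.1 CPM against 2.52 CPM. Of the others higher at day 4 than at day 0, TFAP2C is also in the germ cell list, and NR0B1 rested on 7 counts against 0. The 1 lower gene was NR5A2, at 6.40-fold (3.75 to 11.6). The naive markers DPPA5, with 0 counts from day 2 on, and KLF17, at 0.363 CPM or less in every library, were close to the floor.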
